A study of Macaca mulatta with 39 samples.

Results

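TE31 is a culture of fibroblasts grown out of a teratoma, the mixed-tissue tumour that embryonic stem cells form after injection into immune-deficient mice. It came from the male rhesus macaque embryonic stem cell line C3106, as did 4 sister cultures from other teratomas of that line, TA31, TB31, TC31 and TD31. The 3 arrays of TE31 (TE31a, TE31b and TE31c) were compared with 11 arrays of the sisters, out of 39 arrays of 13 sources in all. Teratoma fibroblasts of the female line C3806 (TA38, TB38 and TC38, 9 arrays) and skin fibroblasts of parent animals (M032, M088 and M106p1, 8 arrays used) served to place TE31 between teratoma and skin. Each tumour is 1 culture, so TE31 stands for a single explant. No gene was deleted and no agent was given per the labels, and the labels name no animal ages, skin sites or passage numbers. The arrays of a source are called biological triplicates, but nothing says that they came from separate cultures, so the array-level p-values below measure only the spread between such arrays, which may be technical.

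Fibroblasts make the collagen-rich matrix of connective tissue, and those of different body sites differ in stable ways. A large share of that positional identity is carried by the HOX genes, which lie in clusters and encode factors that mark place along the body and limb axes, and by other regulators of limb, trunk and face mesenchyme. Fibroblasts of embryonic and adult origin also differ in imprinted growth genes, in growth factors and in the matrix they secrete. The comparison of TE31 with its sisters asks how far one explant of a stem cell line can depart from others of the same line, and whether it departs towards skin.

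The 11 fibroblast sources were read before the comparison for arrays that went against their labels. The array labelled TB31c correlated best with the skin array M106p1b (r = 0.9986) and the array labelled M106p1f with a TD31 array (r = 0.998), and both were left out of their culture means. Their effect is given beside the results they touch. As TB31c read like skin, keeping it moves the mean of TB31 towards skin. A group of 30 probe sets separated line C3106 from line C3806 by at least 1 log2. They were chosen from the other cultures of both lines, without TE31, skin and the stem cell arrays labelled C3106c and C3806c. TE31 lay on the side of line C3106 for all 30 (29 to 30 per array). The sisters were on that side by the choice itself. The array labelled C3106c lay on that side for 0. M032 lay on that side for 6, M088 for 19 and M106p1 for 21, so no skin source carried the full line C3106 pattern. Of the 4 mitochondrial probe sets among them, one read 6.85 in TE31, 6.82 to 7.16 in the sisters, 7.1 in M088, 13.49 in M032 and 12.42 in M106p1. Another read 9.52 in TE31, 9.2 to 9.42 in the sisters, 9.18 in M088, 13.73 in M032 and 9.55 in M106p1, so M106p1 was on the side of line C3106 for one and not for the other. Array medians of TE31 averaged 6.4 against 6.29 in the sisters, a shift of 0.11 log2, and the signals of the opposite ends of actin mRNA differed by 0.03 to 0.18 in TE31 and 0.02 to 0.78 in the sisters. The hybridisation control BioB read 6.71 to 7.29 in TE31 and 6.46 to 7.37 in the sisters. It was over 6.9, a limit set after the values were seen, in 2 TE31 arrays and 2 sister arrays, and under it in 1 and 9. The TE31 arrays over it, TE31b and TE31c, had medians of 6.41 and 6.48, and TE31a had 6.31.

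TE31 read as a fibroblast culture. COL1A2, a chain of type I collagen, was at 13.64, decorin (DCN) at 12.95, lumican (LUM) at 12.26, vimentin (VIM) at 13.54 and fibroblast activation protein (FAP) at 11.66. Markers of other cell types were mixed. EPCAM and CDH1 of epithelium read 2.81 and 5.79. Of the markers of pluripotent cells, POU5F1 read 4.83, LIN28B 5.01, SOX2 5.02 and DPPA4 6.01. The leukocyte markers TYROBP, PTPRC and CD68 read 5.28, 6.11 and 7.57. Of the skeletal muscle markers, MYH3 of embryonic muscle read 4.51, but ACTC1 read 7.61 and TNNT1 8.05. Among the endothelial markers CDH5 read 6.25, VWF 6.61 and PECAM1 7.5. The smooth muscle markers CNN1 and MYH11 were at 11.24 and 8.62, with sisters at 8.26 to 10.87 and 7.49 to 8.36. The neuronal markers STMN2, DCX and SYT1 were at 8.69, 8.24 and 8.49, while ELAVL4 was at 6.47. The part of such cells in the results was not tested. In bulk RNA, fewer cells of a type and less RNA per cell cannot be told apart. Among the genes given as marks of TE31, ATP8B3 and STMN2 were above every sister and COL11A1 was below every sister, but HOXA9, at 9.93, lay only 0.40 above TB31 (9.54) and was not outside the sisters' range.

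A total of 146 genes were higher in TE31 than in every sister culture by at least 1 log2 (a 2-fold ratio), each sister comparison passing an adjusted p of 0.05 in limma, which was 1.03% of 14132 genes tested. In the other direction 152 genes, 1.08%, were lower. The genes given below are described against these shares. The median gap between TE31 and the nearest sister was 1.46 log2 among the higher genes and -1.49 among the lower, and 31 and 38 genes had a gap over 2 log2. With the array labelled TB31c returned to its culture, 87 higher and 75 lower genes were left, of which 85 and 75 were in the first lists. At the limit, ITGBL1 (gap 1.00) and HOXA11 (1.006) were just inside and ARRDC2 (0.9998) just outside among the higher genes, with IGF2 (-1.007) inside and PMAIP1 (-0.9906) outside among the lower.

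The largest gap among the higher genes was that of APOD, which encodes apolipoprotein D, a secreted carrier of small lipids. APOD read 11.21, 11.10 and 11.06 on the TE31 arrays, against 5.47, 6.74, 6.11 and 6.63 in TA31, TB31, TC31 and TD31. All TE31 arrays thus stood far above all sisters, and the difference from the mean of the sisters was 4.88 log2 (SE 0.08, limma adjusted p = 2.97e-15). M032 and M106p1 skin were also high, at 9.07 and 9.92, but M088 skin, at 5.99, was at the level of the sisters. ADRA2A, the alpha-2A adrenergic receptor, read 11.23, 10.91 and 10.78 in TE31 and 5.79 to 6.76 in the sisters. Skin read 9.69, 6.87 and 7.05, so TE31 was above all skin cultures as well.

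MASP1, a protease of the lectin pathway of complement, read 13.09, 12.82 and 12.84 in TE31 and 7.54 to 8.90 in the sisters, a difference of 4.92 log2 (SE 0.08, limma adjusted p = 2.17e-15). Its skin levels of 12.76, 10.67 and 12.09 were also far above those of the sisters. ATP8B3, a member of the P4-ATPase family of lipid flippases, read 13.15, 13.19 and 13.24 in TE31. The sisters had no common level, with 7.01, 7.12, 9.61 and 5.97, while skin was uniform at 13.64, 13.22 and 13.70. TE31 thus differed by -0.33 log2 from the skin mean and by 3.58 from the nearest sister. It was the one of 10 measured flippase genes above every sister, beside 1.03% of all genes. As ATP8B3 was given as a mark of TE31, that count is no result about flippases. A second probe set of ATP8B3 differed by only 0.40.

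Dermatopontin (DPT), a matrix protein named for its abundance in dermis, read 10.50, 10.75 and 10.88 in TE31 and 6.33 to 7.69 in the sisters. Stromelysin (MMP3), a matrix metalloproteinase, read 12.18, 12.34 and 12.27 in TE31 and 7.29 to 9.52 in the sisters, and its skin levels were split, at 12.59 in M032 and 6.14 and 5.81 in the others. WFDC1, a secreted protein of the WAP family, was at 11.47 in TE31 against at most 8.61 in a sister, with a difference of -0.73 log2 from the skin mean, but a second probe set did not differ from the sisters (-0.04). Carboxypeptidase M (CPM), a membrane peptidase, was at 10.13 against at most 7.23 in a sister.

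NPY, KLRC1 and FAM20A were high in TE31 and not in skin. NPY, which encodes the transmitter neuropeptide Y, read 11.72, 11.87 and 11.82 in TE31, 7.89, 5.95, 7.84 and 8.75 in the sisters and 7.93, 5.44 and 5.82 in skin. TE31 was 5.41 log2 above the skin mean. KLRC1, known as an inhibitory receptor of natural killer cells, read 10.38, 9.86 and 9.91 in TE31, 6.22 to 6.69 in the sisters and 6.16 to 6.43 in skin. It belongs to a family of near-identical genes, and the second brightest of its 6 probe sets differed by 1.32 log2, so the level of KLRC1 itself is uncertain. FAM20A, a protein of the secretory pathway, was at 10.41 in TE31 and at most 7.37 in a sister and 7.70 in skin.

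Among transporters and receptors, SLC27A2, which takes up and activates fatty acids, was at 8.82 in TE31 against 3.83 to 5.86 in the sisters and 8.52 to 10.03 in skin. The scavenging chemokine receptor ACKR4 was at 7.62 against 4.24 to 4.83. HTR2B, a serotonin receptor, read 7.03, 7.74 and 7.34 in TE31 and 3.94 to 4.15 in the sisters. PCDHA11, a clustered protocadherin, was at 10.88 against 7.28 to 7.78, but a second probe set differed by 0.25, and genes of that cluster share sequence. Of the 15 genes with the largest gaps, 12 were still outside with TB31c included. The exceptions were ATP8B3, SLC27A2 and WFDC1. Within the range of the skin cultures lay 4 of the 15, beside 50.4% of all genes.

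**Figure D1:**
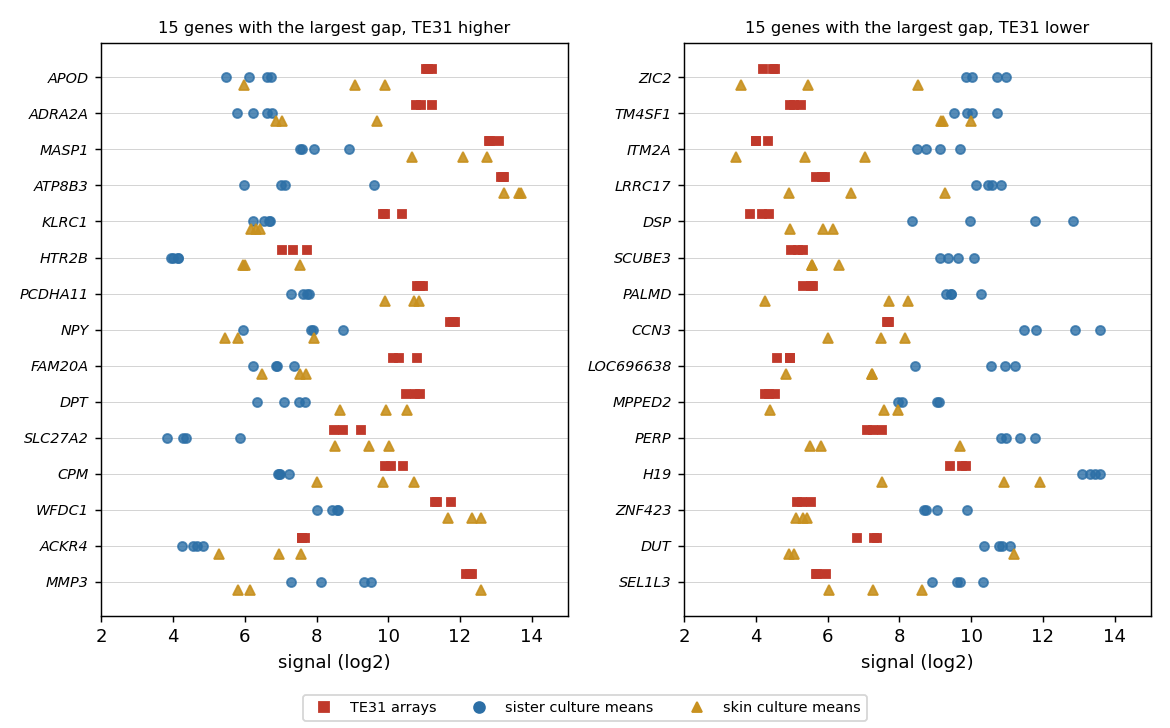
Signal (log2) of the 15 genes with the largest gap to the nearest sister in each direction. Squares are the 3 TE31 arrays, circles the 4 sister culture means and triangles the 3 skin culture means. The TE31 arrays of APOD (11.06 to 11.21) and ZIC2 (4.19 to 4.52) lie beyond every sister, whereas skin is spread on either side for many genes.

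Among the lower genes, ZIC2 had the largest gap. ZIC2, a zinc-finger factor of neural and dorsal development, read 4.46, 4.52 and 4.19 on the TE31 arrays and 9.85, 10.02, 10.72 and 10.98 in the sisters, a difference of -6.00 log2 (SE 0.11, limma adjusted p = 4.93e-15). No sister came within 5 log2 of TE31. Skin was uneven, at 8.52, 5.44 and 3.57. TM4SF1, a membrane protein of the transmembrane 4 family, read 5.25, 5.06 and 4.95 in TE31 but 9.52 to 10.73 in the sisters. Here skin was at 9.17, 9.99 and 9.22, so TE31 lay below every skin culture too, with a difference of -4.38 log2 from their mean.

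Desmoplakin (DSP), which anchors intermediate filaments at desmosomes, read 4.36, 3.84 and 4.16 in TE31 against 9.97, 8.34, 11.79 and 12.84 in the sisters, a difference of -6.61 log2 (SE 0.09, limma adjusted p = 6.39e-16). Skin was at 6.14, 5.88 and 4.96. PERP, another desmosomal protein, was at 7.29 in TE31 against 10.82 to 11.78. The epithelial markers EPCAM and CDH1 were low in the sisters, at 2.72 to 2.80 and 5.62 to 5.70; the part of epithelial cells in these differences was not tested. CCN3, a matricellular protein of the CCN family, read 7.68, 7.71 and 7.64 in TE31 and 11.46 to 13.58 in the sisters, and skin, at 6.02, 7.49 and 8.14, surrounded the TE31 level.

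The imprinted noncoding RNA H19 read 9.86, 9.42 and 9.73 in TE31 against 13.09 to 13.58 in the sisters. Skin read 7.5, 10.92 and 11.91, so TE31 lay inside the skin range. SCUBE3, a secreted signalling protein, was at 5.15 against 9.13 to 10.08, and ZNF423, a zinc-finger factor of mesenchymal progenitors, at 5.32 against 8.67 to 9.87 with skin at 5.11 to 5.42. For LRRC17, PALMD, ITM2A and MPPED2, the gap to the nearest sister ran from -4.39 to -3.57 log2. DUT, an enzyme that removes dUTP, was at 7.17 in TE31 and 10.36 to 11.07 in the sisters, but skin read 5.07, 11.19 and 4.91, so that skin cultures differed from each other more than TE31 did from its sisters. Of the 15 lower genes, 10 were still outside with TB31c included (not ZIC2, ITM2A, PERP, ZNF423 and DUT). Within the range of skin lay 10 of the 15, beside 50.4% of all genes.

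Across the 80 genes outside the range that the rule on names covers, 48 had a second probe set. It moved in the same direction by at least 1 log2 for 32, in the same direction by less for 12, and in the other direction for 4. Compared with the mean of the 4 sisters instead of each one, 321 genes were higher (2.27% of genes) and 384 lower (2.72%) at the same limits in the array-level limma fit, and the counts for gene groups below use this comparison unless the sisters' range is named.

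Of 26 measured HOX genes, 7 rose against the mean of the sisters and none fell, with a median difference of 0.24 log2 beside 0.05 over all genes. HOXA11 read 8.22, 8.12 and 8.09 in TE31 and 6.23, 7.14, 5.85 and 6.15 in the sisters, with skin at 6.10 to 6.56. HOXD13, which marks the distal limb and hind end of the body axis, read 7.39, 7.39 and 7.36 against 5.90 to 6.23, with skin at 5.87 to 6.14. Both were above all sisters and above all skin cultures. With array medians aligned 1 of these genes was still outside, and HOXD13 rose by only 0.84 log2 when its probe sets were averaged.

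HOXA9 (TE31 9.93), HOXA10 (9.01), HOXA7 (7.09) and HOXC6 (10.44) rose against the mean of the sisters but were matched or approached in TB31, at 9.54, 8.41, 7.11 and 10.27. TA31, TC31 and TD31 were lower for each, with HOXA9 at 6.19, 4.39 and 4.28. HOXD1 also rose, to 6.76 against 5.39 to 5.85. The HOXB genes gave another order. For HOXB5, HOXB6 and HOXB7 all skin cultures read 7.47 to 9.79, but TE31, at 6.26, 6.78 and 6.21, was at the level of the sisters (6.06 to 7.31). The difference from the mean of the sisters was -0.20, -0.30 and 0.05 log2 for the 3 genes. HOXC6 was high in all skin cultures (11.07 to 11.5) and in TE31, with a difference of -0.88 log2 between TE31 and the skin mean.

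**Figure D2:**
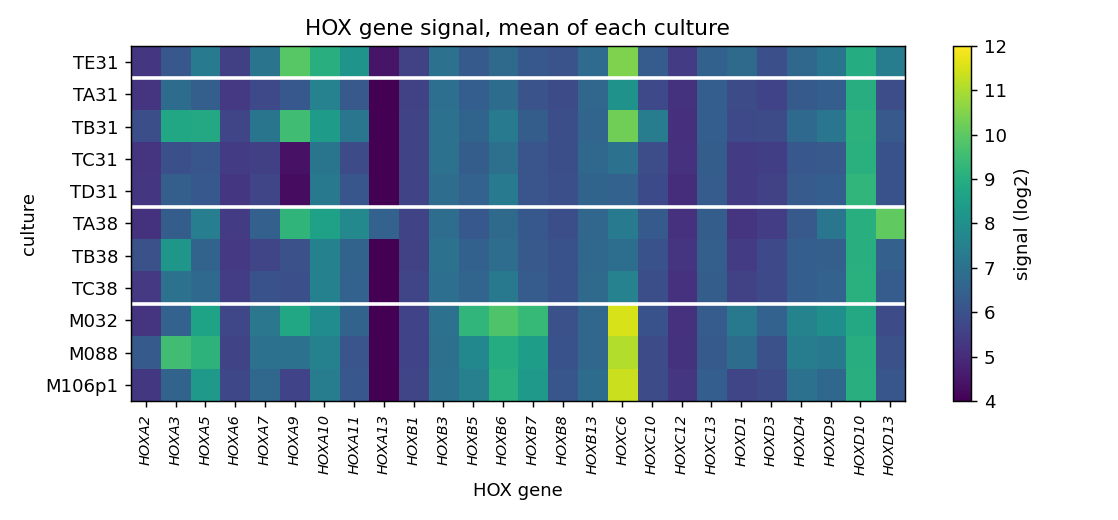
Mean log2 signal (colour) of 26 HOX genes (columns) in TE31, its sisters, the teratoma cultures of line C3806 and skin (rows). TE31 reads high for HOXA9 to HOXA11 and HOXC6. TB31 is above the other sisters for these genes too (9.54, 8.41, 7.14 and 10.27), and TA38 reads 9.23, 8.58 and 7.78 for HOXA9 to HOXA11. The HOXB5 to HOXB7 block is high in the 3 skin cultures.

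Of 51 other patterning factors, 5 rose and 4 fell, and 4 lay outside the sisters' range. SHOX2, a homeobox factor of proximal limb and heart, read 10.68, 10.69 and 10.67 in TE31 and 8.21, 8.73, 6.50 and 7.23 in the sisters, with skin at 10.18, 9.63 and 10.19. TBX3, a T-box factor of limb and mammary development, was at 10.17 against 6.76 to 8.51. FOXC1, a forkhead factor of paraxial mesoderm and neural crest, was at 7.64 against 10.12 to 11.70 in the sisters, with skin at 7.79 to 8.50, and LHX8, a factor of face and forebrain, at 4.53 against 5.77 to 7.07. TE31 was therefore near skin for SHOX2 and FOXC1. Among the HOX cofactors, MEIS1 was at 9.70 with sisters at 6.67 to 9.04 and PKNOX2 at 7.77 with sisters at 8.21 to 9.26, both inside the 1 log2 limit to the nearest sister.

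Retinoic acid handling, through which cells read a major positional signal, changed in both directions. CRABP1, the cellular retinoic acid binding protein of embryonic mesenchyme, read 5.12, 4.90 and 5.00 in TE31 against 7.47, 8.24, 9.51 and 11.93 in the sisters, and skin was at 4.53 to 5.44. RBP4, the plasma carrier of retinol, read 10.37, 10.71 and 10.57 against 5.42 to 7.90, a difference of 4.17 log2 (SE 0.11, limma adjusted p = 3.36e-13), and skin ranged from 7.85 to 11.85. In all, 1 of 14 measured members rose and 4 fell. Neither CRABP1 nor RBP4 was outside the range with TB31c included.

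Of 23 collagens other than those of cartilage, none rose and 5 fell, with a median difference of -0.20 log2. COL8A2, a short-chain collagen of basement structures, was at 8.15 in TE31 against 10.36 to 11.06 in the sisters, COL18A1, the source of endostatin, at 7.83 against 8.98 to 9.15, and COL4A5, a basement membrane chain, at 7.71 against 9.07 to 9.72. COL4A5 and COL18A1 were under the 1 log2 limit when all probe sets were averaged (-0.9 and -0.78). COL1A1 read 12.81 in TE31 and 12.85 to 13.35 in the sisters. With TB31c included COL8A2 was the one of these 3 still outside the range. COL11A1, a fibrillar chain of cartilage and of embryonic mesenchyme, read 11.38, 11.22 and 11.10 against 12.59, 12.65, 12.52 and 12.36, and skin was at 10.03, 12.23 and 12.06.

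Of 23 matrix proteases and their inhibitors, 7 rose and 1 fell, and the median difference was 0.54 log2. MMP3 and MMP11 were above all sisters, MMP11 no longer with TB31c included. Interstitial collagenase (MMP1) was at 11.70 with the sisters at 11.15, 9.52, 10.38 and 7.51, MMP2 at 11.57 with 10.03 to 10.95, and ADAMTS1 at 11.40 with 9.53 to 10.64. MMP13, which fell, was at 5.02, with TA31 at 8.99 and TC31 at 6.83 and the other sisters at 4.39 and 4.57. Fibulin-1 (FBLN1) was at 11.32 against 9.51 to 10.29, and fibromodulin (FMOD), which regulates collagen fibrils, at 8.88 against 10.06 to 11.45, below all skin cultures too (9.79 to 11.97).

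Among 19 integrins and laminins, 1 rose and 4 fell. ITGA6, a laminin receptor chain, was at 8.10 in TE31 against 9.35 to 10.37 in the sisters and 8.97 to 10.13 in skin, and LAMB1, a laminin chain, at 9.93 against 11 to 11.39. ITGB8, an integrin chain that activates latent TGF-beta, was at 6.59 against 8.17 to 9.95, a call that was lost when probe sets were averaged (-0.57). ITGBL1 was at 9.88 against 7.45 to 8.88, with skin at 9.95 to 10.04. With TB31c included ITGBL1 and ITGB8 were not outside the range. Without TE31a or with arrays centred, 7 members of the group fell. Of 15 cadherins, 2 fell against the mean of the sisters (PCDH8 and PCDH10), and neither was outside the range: PCDH8 was high in TA31 (8.59) and read 3.53 to 3.63 in TE31 and the other sisters. With all probe sets averaged PCDH10 differed by -0.85, under the limit.

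In the FGF pathway, FGF2 read 9.45 in TE31 against 7.74 to 8.36, FGF5 9.82 against 6.59 to 8.27, and FGF13, an intracellular family member, 10.61 against 7.67 to 9.20, while the receptor FGFR2 was at 7.90 against 8.98 to 9.62. FGF13 was the one of the 4 still outside with TB31c included. In all, 3 of 15 members rose and 2 fell. FGF2 and FGF5 were inside the range of skin. With all probe sets of a gene averaged, the difference of FGFR2 was only -0.37.

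In the TGF-beta and BMP pathway, 3 of 29 members rose and 4 fell. The BMP-binding proteins GREM1, at 8.33 in TE31 against 6.19 to 6.47, and BMPER, at 8.36 against 5.16 to 7.09, were higher. The ligand BMP6 (6.53 against 7.79 to 9.29) and the BMP-responsive genes ID4 (8.00 against 9.73 to 10.81) and SMAD6 (7.53 against 8.96 to 9.88) were lower. BMP6 was not outside the range with TB31c included. A second probe set differed by only 0.25 for GREM1 and by -0.15 for SMAD6. GREM1, BMPER, ID4 and SMAD6 were also beyond all 3 skin cultures in the same direction.

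In the WNT pathway, 4 of 31 members rose and 5 fell. WNT5A, a ligand of noncanonical signalling, read 12.09, 12.21 and 12.30 against 10.87, 10.92, 10.37 and 9.99, with skin at 11.40 to 11.62. DKK2, a secreted modulator, was at 6.93 against 8.28 to 9.97, and LGR4, a receptor for R-spondins, at 7.45 against 8.86 to 10.13; neither was outside the range with TB31c included. Of 13 hedgehog and Notch genes none rose and 3 fell, all of the Notch pathway: the ligand JAG1 (7.51 against 8.74 to 10.86), the receptor NOTCH3 (7.16 against 8.44 to 8.67) and the target HEY1 (5.74 against 7.07 to 8.30). A second NOTCH3 probe set differed by 0.26 in the other direction, and with all probe sets averaged NOTCH3 differed by -0.55, under the limit.

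Of 12 imprinted genes measured, none rose and 6 fell, with a median difference of -1.07 log2. DLK1, a fetal regulator of mesenchymal differentiation, read 6.71, 6.91 and 6.35 in TE31 against 8.42, 8.34, 10.38 and 11.08 in the sisters, near the skin levels of 5.97 to 6.24. H19 is given above. GRB10 (9.18 against 10.16 to 10.84), MEST (10.45 against 11.31 to 12.38), PLAGL1 (8.85 against 9.33 to 10.64) and PEG3 (5.25 against 5.57 to 8.42) fell without being outside the range by 1 log2. IGF2, which shares its domain with H19, was at 8.34 against 9.35 to 10.63, and skin was at 8.14 to 8.47. Of 14 genes of the insulin-like growth factor axis and senescence 2 rose and 1 fell. IGFBP5, a binding protein of insulin-like growth factors, read 10.89, 11.11 and 10.95 against 8.06 to 8.61. None of DLK1, IGF2 and IGFBP5 was outside the range with TB31c included.

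MEST was far above skin. Skin read 5.38, 7.78 and 6.14 and the line C3806 teratomas 12.53, 12.81 and 12.91, so TE31 was 4.02 log2 above the skin mean. IGF2BP3, an RNA-binding protein of fetal tissue, was at 11.29 in TE31, 10.92 to 11.85 in the sisters and 5.43 to 9.34 in skin, and its difference from the mean of the sisters was -0.15 log2 (SE 0.08, limma adjusted p = 0.137).

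The sisters differed among themselves in marks of other tissues. Of 22 skeletal muscle genes 14 fell and 1 rose, with a median difference of -1.33 log2. MYH3 was at 4.51 in TE31 and 4.44 in TA31, but at 12.18 in TB31, 7.25 in TC31 and 11.80 in TD31, and MYF5, a regulator of muscle precursors, at 3.59 with TA31 at 3.68, TC31 at 4.07, and TB31 and TD31 at 8.40 and 9.46. TE31 was outside the range for ACTC1 (7.61 against 8.72 to 12.66), TNNT2 (6.76 against 8.40 to 10.46) and TNNC1 (6.51 against 8.44 to 10.69). With TB31c included, 8 members fell and TNNC1 alone was outside. MYH2, which rose, was at 10.01 with sisters at 7.43 to 9.60 and skin at 11 to 11.74. Mean levels over the list were 6.18 in TE31, 6.35 to 8.91 in the sisters and 6.42 in skin. The part of muscle cells in the sisters in other differences was not tested.

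Of 9 neural progenitor genes 3 fell and 1 rose. SOX2 read 5.02 in TE31, 10.33 in TA31 and 7.90 in TC31, but 4.81 in TB31 and 4.78 in TD31, and PAX6 was at 6.37 with the same sisters at 10.29, 8.20, 5.28 and 5.25. SOX11, a factor of progenitors and embryonic mesenchyme, was below all sisters, at 7.13 against 8.62 to 9.35, and above all skin cultures, at 4.14 to 4.46. With TB31c included neither SOX11 nor ZIC2 was outside the range. Of 20 neuronal genes 3 rose (STMN2, DCX and ISL1) and SYT1 fell. STMN2, a microtubule regulator of growing axons, was the one outside the range. It read 8.56, 8.80 and 8.72 in TE31, 6.23 to 6.38 in the sisters, 6.72 to 6.89 in the line C3806 teratomas and 10.36, 9.22 and 8.32 in skin. A second probe set differed by 3.93 log2. DCX, a microtubule protein of migrating neurons, was at 8.24 with TA31, TB31, TC31 and TD31 at 7.15, 9.47, 5.24 and 6.3, inside their range. ELAVL4 read 6.47 in TE31 and 6.27 to 6.34 in the sisters, and SYT1 was at 8.49 against 9.36 to 10.55.

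In the cartilage and bone list 6 of 25 genes fell and none rose. HAPLN1, a link protein of hyaluronan matrix, was at 6.41 against 9.16 to 11.22, osteopontin (SPP1) at 6.54 against 8.23 to 10.58, and PTHLH, the parathyroid hormone-like hormone, at 6.15 against 7.41 to 8.53. HAPLN1 and SPP1 were not outside the range with TB31c included. The cartilage genes COL2A1, ACAN, MATN1 and COL9A1 read 5.80 to 7.32 in TE31 and every sister. Of 14 smooth muscle genes 4 rose and none fell: SYNPO2, an actin-binding protein, was at 8.80 with sisters at 4.78 to 7.18 and skin at 8.45 to 9.14, and CNN1, MYOCD and SMTN rose without being outside the range by 1 log2. SYNPO2 was not outside with TB31c included, and its second probe set differed by only 0.33. NGFR, the nerve growth factor receptor of Schwann and neural crest cells, was at 5.44 with sisters at 7.29 to 9.54, but it was not outside with TB31c included and its second probe set differed by -0.02.

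In the limma fit no gene of the pluripotency (10), endoderm (10), melanocyte (6), adipocyte (6) or leukocyte (8) lists passed both limits, of size and of adjusted p, in either direction. TEK fell among 10 endothelial genes, at 7.26 with sisters at 7.67 to 9.95, while PECAM1, at 7.5, and CDH5 and VWF, at 6.25 and 6.61, were within 1 log2 of every sister. With all probe sets averaged the difference of TEK was -0.84, under the limit. None of 19 cell cycle genes passed, although their median difference was -0.49 log2. The largest differences were those of CCNE2 (-0.96) and MCM3 (-0.87), and CCNE2 passed the limit with arrays centred (-1.07).

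Of 22 interferon and MHC genes 2 rose and none fell. IFIT1 read 8.79, 8.43 and 8.55 in TE31 against 7.01, 7.37, 5.90 and 6.37 in the sisters and 5.79 to 6.3 in skin. GBP1, a guanylate-binding protein, was at 9.53 against 6.47 to 7.73 and 8.20 to 9.06 in skin. Among 16 cytokine and chemokine genes, CXCL8, the neutrophil chemokine, read 7.86, 8.48 and 8.65 in TE31 against 5.54 to 7.02, and skin ran from 5.90 to 10.62. CXCL8 was not outside the range with TB31c included.

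The preceding tests set TE31 against the spread between arrays of a culture. When culture means were compared, so that the spread between cultures counted, 4 genes were higher in TE31 than in the sister class (0.0283% of genes) and 2 were lower (0.0142%). TE31 was 1 culture in that limma fit and was assumed to vary like the others. The higher genes were TAL2, KLRC1, CASP12 and P2RX4, and the lower TNFAIP8 and LOC715721, known here by its locus number. At an unadjusted p of 0.05 in that limma fit and with no limit on size, 1728 of 14132 genes were higher and 956 lower. The array medians of TE31 were 0.11 log2 above those of the sisters, and the part of that shift in these counts was not tested. TAL2, a helix-loop-helix factor, read 6.92, 6.86 and 6.92 in TE31 and 5.18 to 5.26 in the sisters (difference 1.68, SE 0.12, limma adjusted p = 0.00446), with skin at 5.2 to 5.22. CASP12, an inflammatory caspase, was at 9.60 against 6.35 to 7.09 (2.98, SE 0.33, limma adjusted p = 0.0318), and P2RX4, an ATP-gated ion channel, at 9.36 against 7.32 to 7.88. TNFAIP8, an apoptosis regulator, read 6.38, 6.31 and 5.83 in TE31 against 9.19 to 9.73 in the sisters and 8.81 to 9.10 in the line C3806 teratomas, and skin was at 5.25 to 6.15. Its second probe set differed by -0.79. In the array-level fit TNFAIP8 and LOC715721 were below every sister, but not with TB31c included.

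These counts rested on single arrays and cultures. Without TE31a, 29 genes were higher and 55 lower, and without TE31b 6 and 5. Without TC31 they were 2 and 1, and without TB31 3 and 1. With TB31c kept no gene was lower by this test and 3 were higher, and with M106p1f kept 12 were higher and 20 lower. Of the 30 genes with the largest gaps, only KLRC1 passed the culture-mean test (adjusted p = 0.00684 in limma), and the smallest value among the 15 lower genes was 0.0711.

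The position of TE31 between teratoma and skin was measured on 536 genes, 231 higher and 305 lower in skin, for which the 3 line C3806 teratoma cultures and the 3 skin cultures did not overlap and differed by at least 1 log2. No culture of line C3106 entered that choice. On the axis from the mean of the line C3806 teratomas (0) to the mean of skin (1), TE31a, TE31b and TE31c lay at 0.641, 0.605 and 0.621, a mean of 0.622 ± 0.0179 (SD, n = 3 arrays). TA31, TB31, TC31 and TD31 lay at 0.0367, 0.102, 0.184 and 0.101, and the skin cultures at 1.06, 0.889 and 1.05. No array of a sister came above 0.189. TE31 differed by 0.517 from the mean of the sister cultures. For the difference between array means, the two-sided exact permutation p was 0.00275 over 364 regroupings of the 14 arrays. That is the smallest p this scheme can give. It treats arrays of a culture as independent, so it is no test over cultures. Over cultures, 1 against 4, no p below 0.2 can be reached one-sided. The array labelled TB31c lay at 1.03 and that labelled M106p1f at 0.107; with TB31c kept the difference was 0.439, and with M106p1f kept TE31 lay at 0.670.

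**Figure D3:**
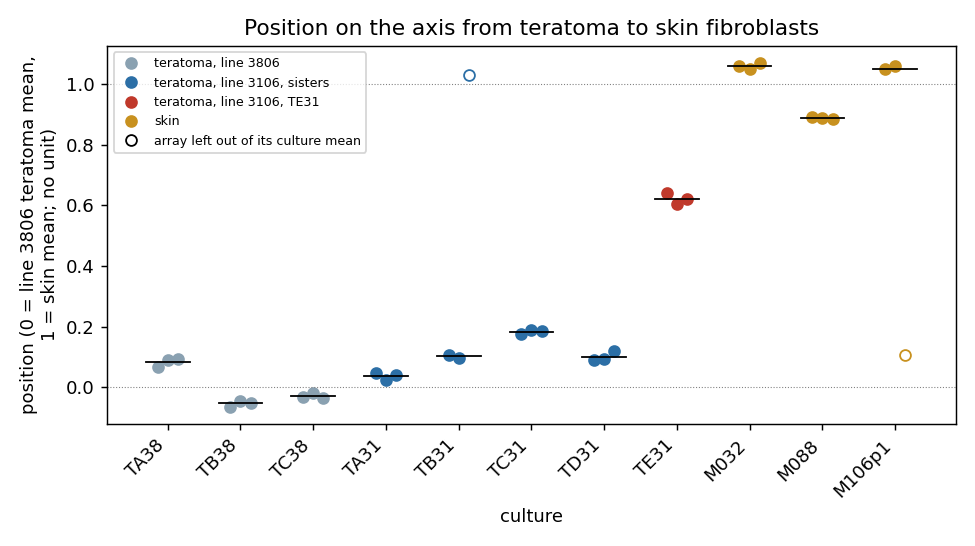
Position of each array (points) and culture mean (lines) on the axis from the line C3806 teratoma mean (0) to the skin mean (1), without unit, over 536 genes. TE31 lies at 0.605 to 0.641, between the sisters (at most 0.189) and the lowest skin culture (0.889); open points are the arrays labelled TB31c and M106p1f.

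The genes did not move by a common share. The quartiles of the relative position of TE31 over the 536 genes were 0.36 and 0.88. For 36% of genes TE31 was past 0.75 and for 18.3% it was under 0.25; the sisters were past 0.75 for 3.92% to 14.7% of genes. TE31 was beyond the skin mean for 84 genes and on the far side of the line C3806 mean for 41. TE31 was past 0.5 of the way to skin for 322 genes (60.1%), compared with 65 (12.1%) for the mean of the sisters.

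Of the 20 genes with the widest separation of skin from line C3806 teratoma, TE31 was past 0.5 of the way to skin for 13. CRABP1 (relative position 1.00), VASH2 (1.06), ATP8B3 (0.93) and SLC27A2 (0.89) were within 1 log2 of the skin mean, with the mean of the sisters at 0.02 or less for each. DSP (1.37) was beyond skin, with a difference of -1.54 log2 from the skin mean and a level below every skin culture. VASH2, an angiogenesis factor with tubulin carboxypeptidase activity, read 3.45, 4.10 and 3.76 in TE31, 6.80 to 10.76 in the sisters and 3.53 to 4.37 in skin. SOX2 (0.89) and RIT2 (0.99) were within 1 log2 of the skin mean as well, but so were some sisters. PAX6 (0.69) was 1.57 log2 above the skin mean and above every skin culture. FAM180A was at the other end: it read 5.34 in TE31, 3.97 to 4.63 in the sisters and 8.22 to 10.91 in skin, a relative position of 0.21. MOXD1, a monooxygenase-like protein (0.28), FBN2, a fibrillin of developing matrix (0.33), SOX11 (0.33), MEST (0.36), ZNF711 (0.44) and C1QTNF5 (0.45) also lay under 0.5. Of the genes in this paragraph that were outside the sisters' range, DSP was the one that stayed so with TB31c included. That array lay at 1.03 on the axis, so including it moves the mean of TB31 towards skin for such genes.

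**Figure D4:**
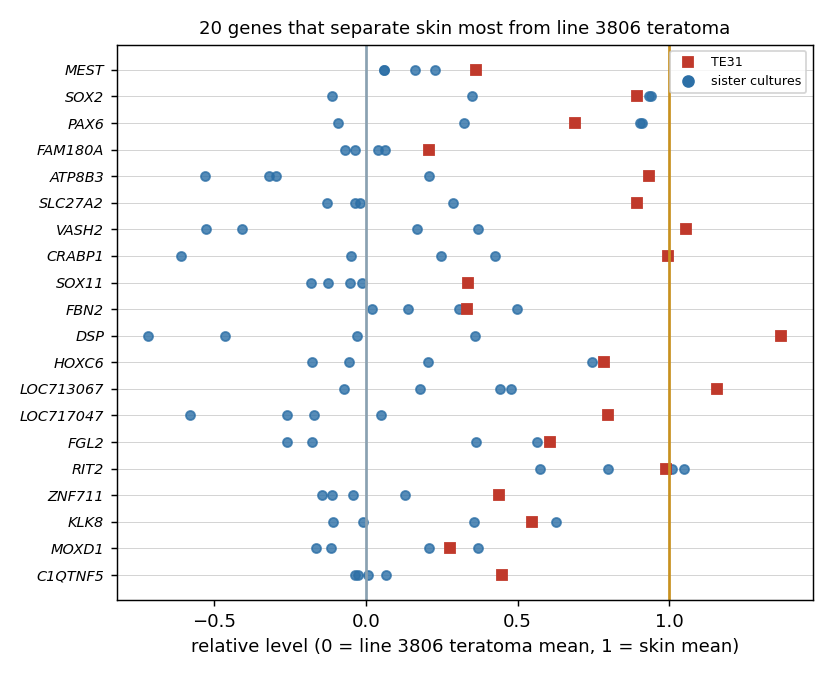
Relative level of TE31 (squares) and of each sister (circles) for the 20 genes that separate skin most from line C3806 teratoma, where 0 is the line C3806 teratoma mean and 1 the skin mean. TE31 is at 1.00 for CRABP1 and 0.93 for ATP8B3 but at 0.21 for FAM180A and 0.36 for MEST.

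Over all genes, TE31 was the nearest of its line to skin. Its root mean square difference from the skin mean was 0.380 log2, against 0.552, 0.579, 0.535 and 0.652 for TA31, TB31, TC31 and TD31, and 355 genes differed from the skin mean by 1 log2 or more, against 807 to 1125. TE31 lay within the range of the 3 skin means for 50.4% of all genes and the sisters for 41.0% to 46.8%. Of the genes outside the sisters' range, 61 of the 146 higher and 79 of the 152 lower were within the range of skin. The share of all genes there, 50.4%, is the background for these counts. Among the same genes 114 and 133 were nearer to the skin mean than to the nearest sister. Their choice by a gap of at least 1 log2 to the nearest sister favours that count, and no share over all genes was taken. For 18 of the higher and 7 of the lower genes the skin mean lay on the other side of the sister mean from TE31. In the culture-mean limma fit, 4 genes differed between TE31 and skin (0.0283%): KLRC1, TAL2 and SOX11, which were higher in TE31, and LRRC63, which was lower. The sister class of 4 cultures, tested in the same fit, differed from skin at 347 genes (2.46%), and a class of 4 has a smaller error than 1 culture. Without TE31a 19 genes differed between TE31 and skin, and without TE31c 12.

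The difference of TE31 from its sisters was also set against that of skin from the line C3806 teratomas, which share no sample. Across the 14132 genes Pearson's r was 0.513 and Spearman's rho 0.397. This is a description across genes of one culture, and genes are not independent replicates.

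**Figure D5:**
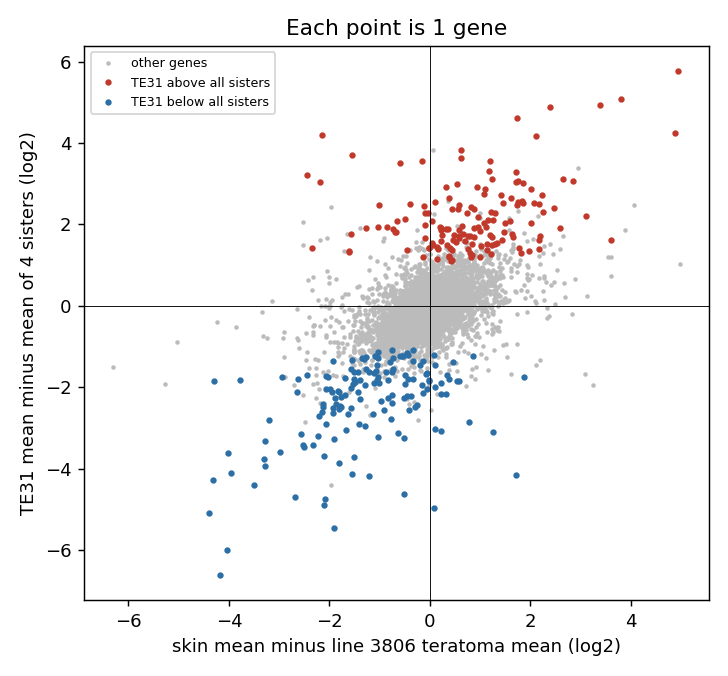
TE31 minus the mean of its 4 sisters (vertical, log2) against skin minus line C3806 teratoma (horizontal, log2), 1 point per gene. Coloured points are the 146 genes above and the 152 below every sister. The former reach into the upper right and the latter into the lower left, where the differences have the same sign (Pearson's r = 0.513 over all genes). Others have opposite signs, such as BTC (1.91 vertical, -1.27 horizontal) and CAVIN4 (-3.03 and 0.10).

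TE31 differed from TA38 by 0.470 log2 (root mean square), from M032, M088 and M106p1 by 0.489, 0.475 and 0.468, and from its own sisters by 0.527 to 0.666, whereas sisters differed from each other by 0.355 to 0.482. Of the 146 higher genes, TA38 was within 1 log2 of TE31 for 74 (50.7%), TB38 for 17 and TC38 for 15, and M032, M088 and M106p1 for 82, 61 and 86. Of the 152 lower genes the counts were 53, 35 and 27 for the teratomas and 99, 68 and 110 for skin. Over all genes these shares were 94.8% to 96.5%. TA38 was high for HOXA9 (9.23), HOXA11 (7.78), HOXD13 (10.04), TBX3 (10.31), MMP3 (11.54), HTR2B (7.77) and GBP1 (9.66), but on the skin axis it lay at 0.0819. HOXA13, at 6.50 in TA38, was at 4.45 in TE31 and 3.48 to 4 in the sisters.

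Beyond the sisters, 14 genes (0.0991%) were at least 1 log2 higher in TE31 than in all 10 other fibroblast cultures, and 5 (0.0354%) were lower. The higher genes were ADM, ADRA2A, APOD, CASP12, FAM20A, FGF13, IFIT1, KLRC1, NPY, TAL2, UBD, VSNL1 and the loci LOC706568 and LOC722249. Adrenomedullin (ADM), a vasodilator peptide, read 11.71, 11.74 and 11.85 in TE31 and 8.17 to 10.38 elsewhere, and UBD, a ubiquitin-like modifier induced by cytokines, was at 7.80 with 5.11 to 6.75 elsewhere. VSNL1, a neuronal calcium sensor, was at 7.48 with 5.63 to 6.45 elsewhere. The lower genes were TM4SF1, METTL8, DCBLD2, LRRC63 and LOC719688. DCBLD2, a membrane receptor, read 8.35 in TE31 and 9.47 to 10.94 elsewhere. METTL8, a methyltransferase, was at 5.01 with 6.80 to 9.71 elsewhere, but its second probe set did not differ (-0.06).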

How the data were processed

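Biotin-labelled RNA of 39 samples was hybridised to 1-colour arrays. The authors deposited log2 signals for 52865 probe sets, made with GCOS and RMA per the submitters' processing notes, with no version named. RMA brings the arrays' distributions close to each other, so a shift of most genes would be seen only in part. Array medians of the deposited signals still ran from 6.25 to 6.48. No depth applies; the number of arrays limits the precision. Probe sets with 1 gene name (24956; 24616 matched by gene identifier to RefSeq, assembly T2T-MMU8v2.0) gave 14132 genes, each read from its brightest probe set; 361 probe sets with several genes were left out. limma 3.58.1 (R 4.3.3) was fitted to 14 arrays of 5 cultures (9 residual degrees of freedom) and to 11 culture means (7). Calls needed 1 log2 and a Benjamini-Hochberg adjusted p under 0.05 over all genes; tests were two-sided. The fits were also run on simulated data, with changes placed past the 1 log2 limit beyond every sister. The rule on the sisters' range was bound to find most of these, so this was a check of the code only. Genes named were the 15 largest gaps each way, the 4 given marks and the list members outside the range (else the 2 largest); others were chosen after their values were seen. The members and lists were chosen with earlier results of these data known. Alternatives were another gene summary, a dimness limit of 6, centring, other fits and leaving out arrays or cultures.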

Additional observations from a re-analysis of the deposited data

Results flagged for a closer look

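Among 35 measures compared over the 5 teratoma cultures of line C3106 (the position on the skin axis, the distance from skin, the number of genes off skin and 32 list means), 5 had 1 culture standing apart from the rest by Dixon's rule, which chance alone meets in about 1 of 20 groups. TE31 was that culture for 4. Its skin axis position was 0.622, with the others at 0.0367 to 0.184. Its mean level over the cartilage and bone list was 6.57, with the others at 7.04 to 7.23. The Dixon ratio there, 0.712, barely passed the limit of 0.71. The median difference in that list was -0.11, and the list holds COL11A1, a gene given as a mark of TE31. The mean of TE31 over the epithelium and keratinocyte list was 6.44, with the others at 6.97 to 7.13. In that list of 16 genes DSP differed from the sisters by -6.61 log2, while the median difference was 0.08 (-0.03 with arrays centred), so mean and median differ in sign. Its mean over the melanocyte list of 6 genes was 6.31, with the others at 6.11 to 6.16. The median difference there was 0.19 and fell to 0.09 with arrays centred, beside a shift of 0.11 between the array medians of TE31 and its sisters. For the cadherins TA31 stood apart, at 8.40 with the others at 7.72 to 7.85.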

How the results depend on the processing

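The counts of genes outside the sisters' range and against the sisters' mean stayed within 1.5 times under every alternative run except TB31c kept, which gave 87 higher and 75 lower. They were 131 to 161 higher and 141 to 177 lower when any 1 array was left out, and 306 to 343 and 375 to 420 against the mean. The replicate letters do not pair the samples (r of same-letter deviations -0.487 to 0.566 over 11 pairs); with the replicate block 145 were higher and 151 lower, and 325 and 378 against the mean, so no count left the limit. The culture-mean counts were the least stable. They were 7 and 5 with all probe sets averaged, 8 and 7 with genes at 6 or more, 6 and 9 with arrays centred, 6 and 4 with trend and robust fitting, 37 and 35 with only the 5 cultures of line C3106, 12 and 20 with M106p1f kept, and 0 lower with TB31c kept. Leaving out 1 array of TE31 or 1 sister culture gave 2 to 29 higher and 1 to 55 lower. Genes called between TE31 and skin were 10 with the dimness limit or with trend and robust fitting, 11 with centring and 4 to 19 with 1 TE31 array left out. The distance from skin was 0.344 with probe sets averaged, 0.408 with the dimness limit and 0.373 to 0.409 without 1 array. The axis position of TE31 was 0.597 with probe sets averaged, 0.670 with M106p1f, 0.721 on an axis from the sisters, 0.595 as a median over genes and 0.613 to 0.631 without 1 array. Its distance from the sisters on the axis was 0.439 with TB31c, 0.472 with probe sets averaged, 0.473 with M106p1f and 0.507 to 0.525 without 1 array. Restricting to arrays with BioB under 6.9, chosen after seeing the data, left 1 TE31 array, assumed to vary like the others, and gave 0.648 and 0.538, with 179 higher and 141 lower genes. Causes were not tested. For 99 named genes, 2175 results under the alternatives were set beside the main run. The call was lost in 14 of them, 10 of these with probe sets averaged, and gained in 3. In direction, LEP turned from -0.48 to 0.45 with probe sets averaged and TYRP1 from 0.36 to 0.00 in the arrays with BioB under 6.9. Limits are that TE31 is 1 culture, that its arrays may be technical repeats, and that signals near background have no detection call.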
